A study of Sus scrofa with 8 samples.

Results

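Transforming growth factor beta (TGF-beta) ligands are secreted in a latent form, are released at the cell surface or in the matrix, and bind a type II receptor that activates a type I receptor kinase, which phosphorylates SMAD2 and SMAD3. In epithelia the pathway is known for growth arrest and for the epithelial-to-mesenchymal transition, in which transcription factors of the SNAI and ZEB families repress epithelial adhesion genes such as CDH1 while mesenchymal and matrix products such as vimentin and fibronectin accumulate. In the pancreas it is studied in duct injury, fibrosis and ductal cancer. The genes described here are the 3 ligands TGFB1, TGFB2 and TGFB3, the 4 transcription factors SNAI1, SNAI2, ZEB1 and ZEB2, and the 3 products TGFBI, VIM and FN1. They were chosen by symbol, which gives 10 of the 30282 genes in the table, each with a single gene identifier and with its annotation rows summed.

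Expression was measured by poly(A) RNA sequencing in porcine pancreatic ductal organoids (PPDO), which are epithelial cysts grown from picked pancreatic ducts. There were 4 lines, the embryonic line Em, the late postnatal line LPN and the early postnatal lines EPN1 and EPN2, each kept for a week in complete and in differentiation medium, so that n = 4 libraries per medium (sample titles Control and Treated). The treatment label names an endocrine induction medium for all 8 samples, those titled Control included, so the groups were taken from the titles and the media from the study's methods. The pigs were wild-type or INS-eGFP animals, which carry a reporter driven by the insulin promoter, and the sources used here do not give the genotype of each line. Each line is a single culture per medium, and Em and LPN each stand for their stage with 1 line, so that stage and line cannot be told apart. Complete medium contained the growth factors EGF, FGF10 and WNT3a, the BMP antagonist noggin, R-spondin, prostaglandin E2 and gastrin, and differentiation medium contained none of these. To maintain PPDO, the study used an L-WRN conditioned medium supplement in place of recombinant WNT3a, R-spondin and noggin. The sources used here do not say whether these libraries received it. Both media contained A83-01, an inhibitor of the type I receptor kinases for TGF-beta, activin and nodal, and the kinase inhibitor Y-27632, beside N2 and B27 supplements, nicotinamide and N-acetylcysteine. The inhibitor of the receptor kinases was thus present in both groups. The question the comparison of the media addresses is which genes of this group differ once the growth factors, and any conditioned medium, are withdrawn.

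The libraries held between 40553593 and 47910657 counts. Levels are given as CPM, counts scaled to a common library size, without correction for gene length. Where no count was seen, a level of up to 3 counts is allowed, or 0.0626 to 0.0740 CPM depending on the library, and such limits and intervals cover counting error only. Of 11 ductal markers 10 were in the table, all above that limit, with a summed level of 6839 to 11259 CPM in complete medium and of 3967 to 14855 CPM after differentiation. The lowest sum was that of EPN2 in differentiation medium. There KRT8 was at 425 CPM and KRT18 at 45.2 CPM, against at least 1459 and 247 CPM in the other lines. CDH1, on the same list, went the other way in EPN2, from 1569 CPM in complete to 2503 CPM in differentiation medium. EPN2 also had the lowest VIM and FN1 levels in differentiation medium. The part of its low KRT8 and KRT18 levels in those values was not tested.

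Of the 10 genes, 8 had enough counts to be tested and 1 of the 8 differed between the media, where 6.97% of the 14475 genes tested did (edgeR quasi-likelihood test, Benjamini-Hochberg adjusted p under 0.05 over all genes tested). That gene was TGFB1, which fell, as 4.1% of all genes tested did. The other 7 did not pass the threshold, although VIM, FN1 and SNAI1 were lower in differentiation medium in each of the 4 lines. Among all genes tested 24.2% were lower in all 4 lines. In the fit blocked on line, which uses the pairing of the media within a line, TGFB1 was again the only one of the 8 to pass, where 19.9% of all genes tested did. The median log2 fold change of the 8 genes was -0.35, beside 0.01 over all genes tested. In bulk RNA, fewer cells that express a gene and less RNA per cell cannot be told apart.

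**Figure D1:**
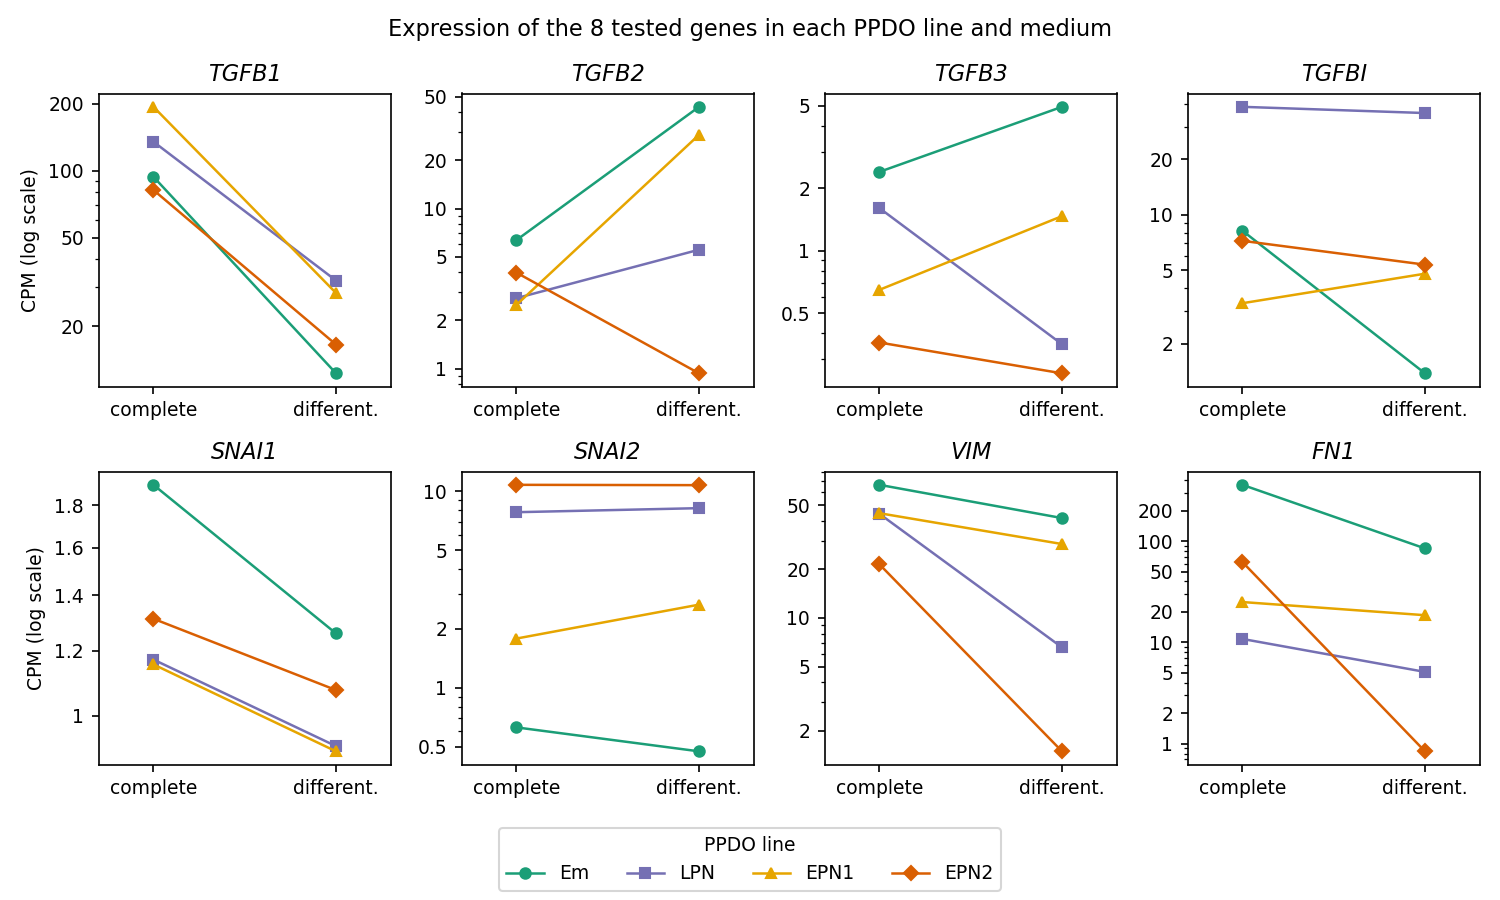
CPM on a log scale (y axis, its range set per gene) of the 8 tested genes in complete and differentiation medium (x axis), 1 point per library, with a line joining the libraries of one PPDO line. TGFB1 falls in every line and its media do not overlap, whereas TGFB2 and TGFB3 lie higher in some lines and lower in others and SNAI2 keeps to the level of each line.

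TGFB1 (ENSSSCG00000003017; RefSeq gene span chr6:49332169-49348642 on Sscrofa11.1) encodes the ligand best known for growth arrest and fibrosis. In complete medium it was at 94.0 CPM in Em, 135 CPM in LPN, 194 CPM in EPN1 and 82.0 CPM in EPN2. In differentiation medium it was at 12.3, 32.1, 28.2 and 16.5 CPM in the same order. Every library in differentiation medium was below every library in complete medium, which held in this direction for 9.96% of all genes tested. The mean fell from 126 ± 50.6 to 22.3 ± 9.39 CPM (SD, n = 4), or 5.67-fold, and the log2 fold change was -2.50 (SE 0.40) with an adjusted p of 0.0182 in edgeR. Within lines the level was lower by a factor of 7.66 in Em, 4.21 in LPN, 6.88 in EPN1 and 4.96 in EPN2. The 4 lines thus lay within 2-fold of each other in the size of the difference. Blocked on line, the log2 fold change was -2.53 (SE 0.18) and the adjusted p 0.00760. The adjusted p-value depended on single libraries. It was 0.0516 without EPN1 and 0.0567 without LPN in complete medium, and 0.0612 without EPN1 in differentiation medium, with log2 fold changes of -2.20, -2.47 and -2.63. In the same fits, in this order, 163, 168 and 70 of all genes passed, against 1009 with all libraries.

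TGFB2 (ENSSSCG00000010816; chr10:8306136-8435307) encodes a ligand that, unlike the others, needs the co-receptor TGFBR3 for efficient binding to the type II receptor. Its levels in complete medium were 6.35 CPM in Em, 2.75 CPM in LPN, 2.50 CPM in EPN1 and 3.98 CPM in EPN2. In differentiation medium they were 43.2, 5.53, 28.9 and 0.934 CPM. It was therefore higher in Em, LPN and EPN1, by a factor of 6.81, 2.01 and 11.5, and lower in EPN2, by a factor of 4.26. The counts behind the EPN2 values were 176 and 40, and the 95% counting interval of that log2 ratio, -2.62 to -1.59, lies below 0. The spread between lines widened from 2.54-fold in complete to 46.2-fold in differentiation medium. Over the 4 lines the means were 3.90 ± 1.76 and 19.6 ± 19.9 CPM (SD, n = 4), and the log2 fold change of 2.33 (SE 0.99) did not pass the threshold (adjusted p = 0.175 in edgeR). Blocked on line, it was 1.52 (SE 1.04) at an adjusted p of 0.323. With the block and without EPN2, the only line in which TGFB2 was lower, it was 2.46 and passed (adjusted p = 0.0390). That fit kept only lines in which TGFB2 was higher, so its call is a description. Without Em, EPN1 or LPN instead the log2 fold change was 0.94, 0.70 and 1.79 and did not pass (adjusted p = 0.629, 0.705 and 0.458). DESeq2 without the block, in which 18.5% of all genes with an adjusted p passed, gave an adjusted p of 0.0499.

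The ratio of the TGFB2 to the TGFB1 count within a library, which does not depend on depth and in which gene length cancels between media, was higher in differentiation than in complete medium by a factor of 52.1 in Em, 79.5 in EPN1, 8.46 in LPN and 1.16 in EPN2. In EPN2 both ligands were lower, by factors of 4.26 and 4.96. This ratio was chosen after the values were seen and is a description.

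TGFB3 (ENSSSCG00000002385; chr7:99133873-99162239), the third ligand, known for its part in palate fusion, was the least counted of the ligands, with 11 to 240 counts in a library. It was at 2.40 CPM in Em, 1.61 CPM in LPN, 0.649 CPM in EPN1 and 0.362 CPM in EPN2 in complete medium. In differentiation medium it was at 4.95, 0.355, 1.47 and 0.257 CPM. It was higher in Em and EPN1 by a factor of 2.06 and 2.27 and lower in LPN by a factor of 4.53. The counting interval of the log2 ratio in EPN2, -1.75 to 0.70, spans 0, so that a difference there was not detectable at 16 and 11 counts. Over the lines the log2 fold change was 0.48 (SE 0.99, adjusted p = 0.785 in edgeR), with a direction that turned with the block (-0.013). In Em and EPN1, then, TGFB2 and TGFB3 were both higher while TGFB1 was lower. In EPN2 TGFB1 and TGFB2 were lower, with no detectable difference in TGFB3.

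**Figure D2:**
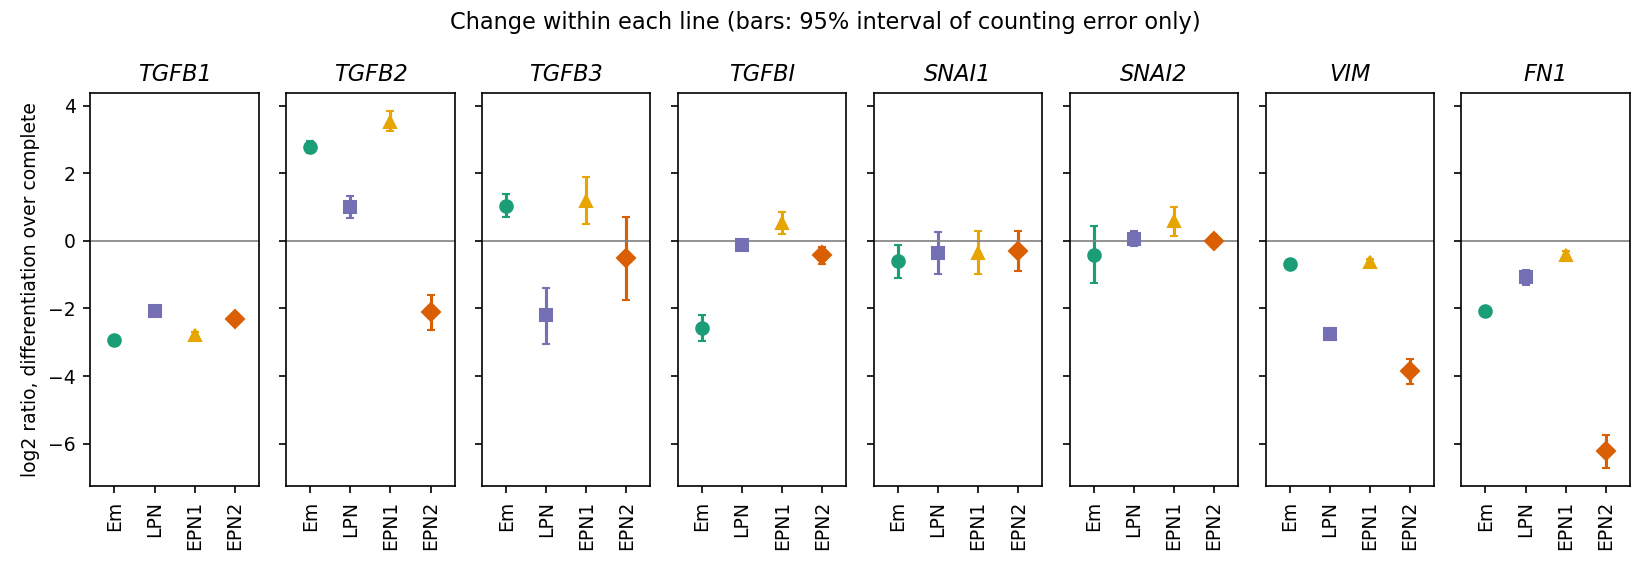
Log2 ratio of differentiation over complete medium (y axis) within each PPDO line (x axis) for the 8 tested genes, with bars for the 95% interval of counting error, which leaves out the spread between cultures. The 4 TGFB1 points lie between -2.94 and -2.07, whereas those of FN1 run from -6.21 in EPN2 to -0.43 in EPN1.

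SNAI1 (ENSSSCG00000032613; chr17:51546446-51552498) encodes Snail, a zinc finger repressor that acts early in the transition. Its levels were 1.91 CPM in Em, 1.17 CPM in LPN, 1.15 CPM in EPN1 and 1.31 CPM in EPN2 in complete medium, and 1.26, 0.919, 0.905 and 1.07 CPM in differentiation medium. All 4 lines were lower in differentiation medium, and the media overlapped. The difference was small, at -0.41 on the log2 scale (SE 0.30, edgeR adjusted p = 0.406), and at -0.40 with the block (adjusted p = 0.283). The counting interval excluded 0 only in Em, where 88 and 61 counts gave a log2 ratio of -0.60 (-1.09 to -0.11).

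SNAI2 (ENSSSCG00000039568; chr4:79264880-79268475) encodes Slug, a relative of Snail that is also a factor of basal epithelial cells. In complete medium it was at 0.628 CPM in Em, 1.78 CPM in EPN1, 7.82 CPM in LPN and 10.8 CPM in EPN2, and in differentiation medium at 0.475, 2.65, 8.20 and 10.7 CPM. The lines kept this order in both media. They differed by 17.2-fold in complete and 22.6-fold in differentiation medium, whereas the media within a line differed by at most 1.49-fold. Its log2 fold change between the media was 0.07 (SE 1.05, adjusted p = 0.972 in edgeR), and 0.07 when blocked on line, with a smaller SE of 0.23 and an adjusted p of 0.830. Of the variance of its log2 CPM over the 8 libraries, 99.0% lay between lines and 0.0350% between media. The median share between lines over all genes tested was 49.3%, and 99.8% of the genes tested had a smaller share between lines than SNAI2.

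ZEB1 (ENSSSCG00000011025; chr10:42013114-42216139) and ZEB2 (ENSSSCG00000021343; chr15:7498879-7631347), the zinc finger homeobox repressors that sustain the mesenchymal state, were close to the limit of detection and were not tested. ZEB1 had 4 to 8 counts in each of the 8 libraries, from 0.0835 to 0.168 CPM. ZEB2 had no count in 4 libraries and at most 3 counts in 7 of 8, with 7 counts (0.144 CPM) in Em in differentiation medium as its highest value. For ZEB1 the counting intervals of all 4 within-line ratios spanned 0, so that no difference between the media was detectable within a line at this depth. For ZEB2 in Em, at 0 and 7 counts, the 95% counting interval of the log2 ratio lay above 0.46, with a single culture per medium. In the other 3 lines ZEB2 was at 0 to 2 counts in both media, and no fold is given.

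VIM (ENSSSCG00000011033; chr10:43516441-43526172) encodes vimentin, the intermediate filament protein of mesenchymal cells that cultured epithelia can also express. It was at 66.7 CPM in Em, 44.1 CPM in LPN, 44.5 CPM in EPN1 and 21.5 CPM in EPN2 in complete medium, and at 41.6, 6.58, 28.7 and 1.49 CPM in differentiation medium. Every line was lower in differentiation medium, but by very different factors, 1.61 in Em, 1.55 in EPN1, 6.71 in LPN and 14.4 in EPN2. The media overlapped, since Em and EPN1 in differentiation medium stayed above EPN2 in complete medium. The means were 44.2 ± 18.5 and 19.6 ± 18.8 CPM (SD, n = 4), and the log2 fold change was -1.18 (SE 0.86) at an adjusted p of 0.411 in edgeR. Blocked on line, it was -1.91 (SE 0.64, adjusted p = 0.0847). The block thus brought the adjusted p-value nearer to the threshold without passing it, and DESeq2 with the block, in which 33.8% of all genes with an adjusted p passed, gave 0.00371.

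FN1 (ENSSSCG00000016174; chr15:117658158-117737145) encodes fibronectin, a matrix glycoprotein that is a standard marker of the transition. In complete medium it was at 359 CPM in Em, 10.8 CPM in LPN, 25.03 CPM in EPN1 and 62.2 CPM in EPN2. In differentiation medium the levels were 84.7, 5.11, 18.6 and 0.841 CPM. The embryonic line was the highest in both media, and EPN2 went from the second highest to the lowest. FN1 was lower by a factor of 4.24 in Em, 2.12 in LPN, 1.35 in EPN1 and 74.0 in EPN2, the last from 2751 to 36 counts. The lines differed by 33.2-fold in complete medium, more than the 4.19-fold difference between the media (log2 fold change -2.07, SE 1.46, adjusted p = 0.392 in edgeR). With the block it was -2.10 (SE 0.98, adjusted p = 0.172). Its size rested on single libraries, at -0.24 without Em in complete medium and -3.80 without Em in differentiation medium. With the block and without the EPN2 line it was -1.21.

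TGFBI (ENSSSCG00000014316; chr2:138191793-138225373) encodes a secreted matrix protein named for its induction by TGF-beta. It was at 8.21 CPM in Em, 38.6 CPM in LPN, 3.32 CPM in EPN1 and 7.23 CPM in EPN2 in complete medium, and at 1.38, 35.7, 4.798 and 5.37 CPM in differentiation medium. LPN was the highest line in both media. In Em the level was lower by a factor of 5.94 in differentiation medium, whereas the factors in the other lines did not exceed 1.45, and EPN1 was the only line that was higher. The log2 fold change was -0.28 (SE 1.07, adjusted p = 0.892 in edgeR), and it was 0.91 without LPN in complete and -1.89 without LPN in differentiation medium.

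**Figure D3:**
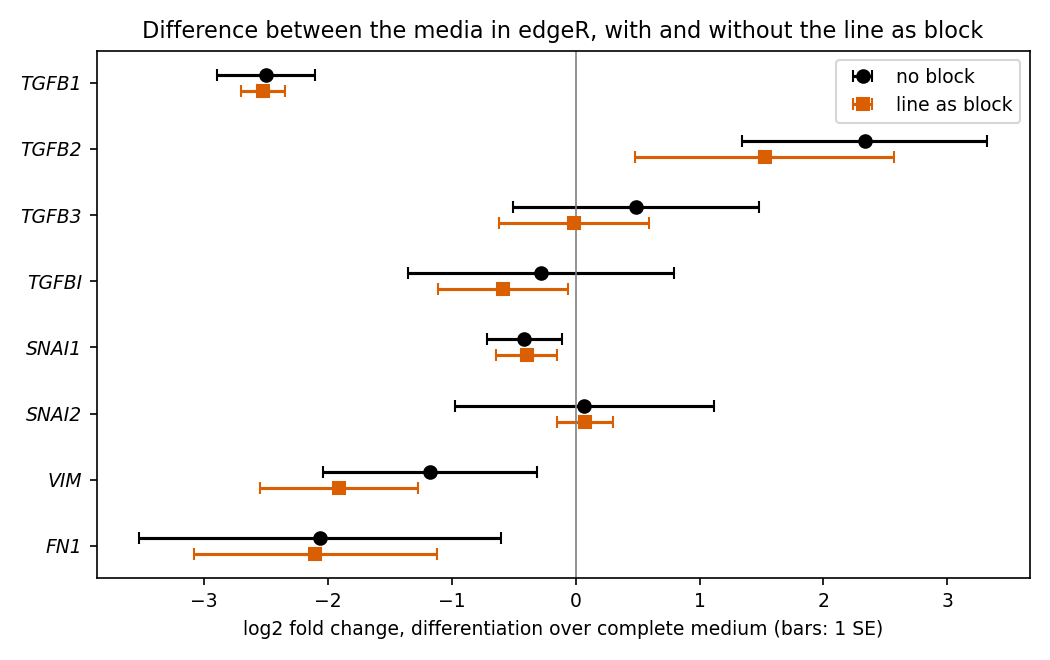
Log2 fold change between the media (x axis) with bars of 1 SE for the 8 tested genes (y axis), in edgeR without a block (circles) and blocked on line (squares). TGFB1, at -2.50 and -2.53, is the one gene past the adjusted threshold, and the block narrows the SE of SNAI2 from 1.05 to 0.23 and shifts TGFB2 and VIM downward.

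The genes differed in how their variance was divided. TGFB1 had 85.3% of it between media and 13.1% between lines, and 96.8% of all genes tested had a smaller share between media. TGFBI and TGFB3 had 81.3% and 77.1% between lines, and 4.41% and 0.0892% between media. TGFB2 had 46.0% between lines and 14.7% between media, and the 39.3% that neither line nor medium accounts for was the largest such share among the 8 genes, where the median of all genes tested was 14.6%. SNAI1, VIM and FN1 had 57.5%, 50.9% and 56.0% between lines and 38.8%, 33.2% and 24.0% between media. These shares are descriptions of 8 libraries.

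**Figure D4:**
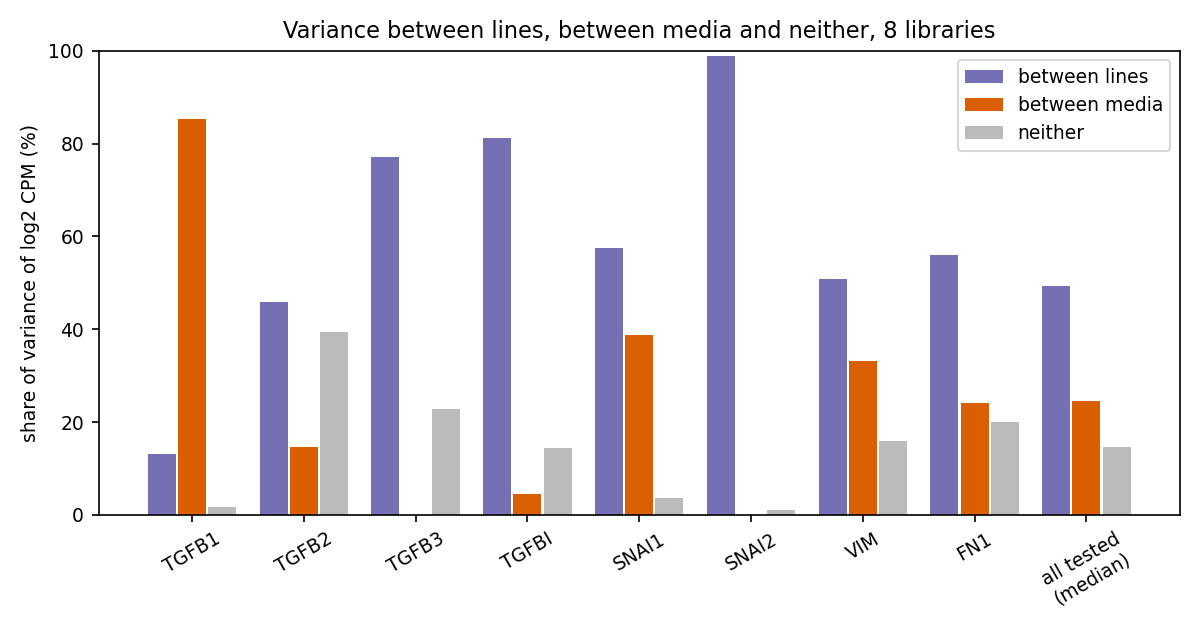
Share of the variance of log2 CPM (y axis, percent) between lines, between media and neither, for the 8 tested genes and as the median over all genes tested (x axis). TGFB1 is the gene with the largest share between media (85.3%) and SNAI2 the one with the largest share between lines (99.0%).

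Genes whose levels followed those of a member most closely over the 8 libraries were read by Pearson correlation of log2 CPM, as a description, since the libraries share lines and media and 14475 genes were searched. They were EMC9 (r = 0.986), NEPRO (0.984) and SMIM11 (0.984) for TGFB1, and MCAM (0.994), GMPR2 (0.987) and FLRT3 (0.985) for TGFB2. For SNAI2 they were S100A11 (0.992), PTPRZ1 (0.989) and MRC2 (0.989), and for VIM they were IFT80 (0.994), PROB1 (0.988) and FLVCR2 (0.985). The closest gene was HTATSF1 (0.980) for TGFB3, KIF2A (0.989) for SNAI1 and METTL17 (0.973) for TGFBI.

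Of 95 other genes of the pathway and the transition, 92 could be matched to a single gene and 77 were tested. Among these 8 differed between the media, 6 higher and 2 lower, beside 2.87% and 4.1% of all genes tested. In the fit blocked on line 24 did, 15 higher and 9 lower, beside 9.48% and 10.4% of all genes tested. All 8 passed in the fit blocked on line, at adjusted p from 0.00856 (LOXL2) to 0.0331 (ITGB8). In the fit without a block the 8 calls varied with single libraries. None of them passed without EPN1 in differentiation medium, where 70 of all genes did, against 1009 with all libraries. Of the 8 fits that each leave out 1 library, GDF15 passed in 6, LOXL2 in 5, SMAD7 in 4, SOX4 in 3, and TGFBR3, OCLN and ST14 in 1 each, and the direction of all 8 held in every such fit.

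Of 8 receptors and co-receptors 7 were tested and 1 rose. TGFBR3, the co-receptor betaglycan, rose from 8.002 ± 3.54 to 27.9 ± 7.40 CPM (SD, n = 4), by 1.80 on the log2 scale (SE 0.36, adjusted p = 0.0312 in edgeR), and was higher in 4 of 4 lines, as 23.9% of all genes tested were. Its levels of 17.4 to 34.2 CPM in differentiation medium lay above the 5.001 to 11.9 CPM in complete medium, EPN2 included, and media did not overlap in this direction for 8.82% of all genes tested. The signaling receptors TGFBR1 (log2 fold change -0.24, SE 0.13, adjusted p = 0.282) and TGFBR2 (-0.49, SE 0.25, adjusted p = 0.234) did not pass. ENG, the co-receptor endoglin, was at -1.90 on the same scale (adjusted p = 0.0501) and passed with the block (adjusted p = 0.0237).

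Of 10 SMADs and SMAD regulators, all tested, 1 rose. SMAD7, the inhibitory SMAD that is itself induced by the pathway, rose from 3.51 ± 0.906 to 19.8 ± 13.9 CPM (SD, n = 4), by 2.50 on the log2 scale (SE 0.51, adjusted p = 0.0315 in edgeR). Its levels in differentiation medium were 39.5 CPM in Em, 7.49 CPM in LPN, 18.3 CPM in EPN1 and 14.0 CPM in EPN2, each above the highest level in complete medium, 4.41 CPM. The receptor-regulated SMAD2 and SMAD3 and the common SMAD4 had log2 fold changes of -0.10, -0.08 and 0.03 (adjusted p = 0.539, 0.834 and 0.910). PMEPA1, another feedback inhibitor, was higher in 4 of 4 lines and did not pass (log2 fold change 1.57, SE 0.49, adjusted p = 0.0904, and 0.0630 with the block).

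Of 12 genes for the latency and activation of the ligands 11 were tested and 1 rose, ITGB8, the subunit of an integrin that releases latent TGF-beta, from 118 ± 15.8 to 182 ± 20.9 CPM (SD, n = 4), by 0.62 on the log2 scale (SE 0.14, adjusted p = 0.0405 in edgeR). It was higher in 4 of 4 lines, and it passed in 0 of the 8 fits that leave out 1 library. Of the 20 TGF-beta induced target genes 18 were tested and 1 rose, SMAD7, with 9 log2 fold changes above and 9 below 0 and a median of 0.09. With the block 6 target genes passed, 4 higher and 2 lower, beside 9.48% and 10.4% of all genes tested.

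Of 8 activins, inhibins and antagonists 4 were tested and 1 fell. GDF15, a distant member of the ligand family known as a stress response gene, fell from 27.8 ± 10.97 to 3.996 ± 1.88 CPM (SD, n = 4), with -2.80 on the log2 scale (SE 0.45, adjusted p = 0.0186 in edgeR), in 4 of 4 lines. Of 12 other transition transcription factors 7 were tested and 1 rose. This was SOX4, which was at 68.3 to 146 CPM in complete medium and rose to 170 to 342 CPM, by 1.56 on the log2 scale (SE 0.31, adjusted p = 0.0312). SNAI3, the least studied SNAI factor, was lower in 4 of 4 lines at low levels, 0.837 ± 0.183 and 0.208 ± 0.105 CPM (SD, n = 4; adjusted p = 0.0515 in edgeR, and 0.0232 with the block).

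Of 14 mesenchymal cytoskeleton and adhesion genes 10 were tested and 1 fell. LOXL2, a matrix cross-linking enzyme that is also a hypoxia target, fell from 67.9 ± 52.2 to 5.34 ± 2.03 CPM (SD, n = 4), with -3.67 on the log2 scale (SE 0.61, adjusted p = 0.0197 in edgeR), in 4 of 4 lines. The list as a whole did not move one way, with 5 log2 fold changes above and 5 below 0. CDH2, the mesenchymal cadherin, was not tested and had at most 26 counts in a library.

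Of 16 epithelial genes that the SNAI and ZEB factors are known to repress or that oppose the transition, 15 were tested and 2 rose, OCLN (log2 fold change 1.07, SE 0.22, adjusted p = 0.0327 in edgeR) and ST14 (0.62, SE 0.14, adjusted p = 0.0400). OCLN encodes the tight junction protein occludin and ST14 the membrane protease matriptase. All 15 log2 fold changes were above 0, where 50.7% of all genes tested were, with a median of 0.51. With the block EPCAM was at -0.07 and the other 14 were above 0. With the block 5 of the 15 passed, all higher, where 9.48% of all genes tested passed in that direction. CDH1, the epithelial cadherin that defines the switch, had means of 1304 ± 416 and 2779 ± 838 CPM in the media (SD, n = 4). It was higher in 4 of 4 lines, from 1748 to 4004 CPM in Em, 978 to 2104 CPM in LPN, 921 to 2505 CPM in EPN1 and 1569 to 2503 CPM in EPN2, and its log2 fold change of 1.09 (SE 0.30, adjusted p = 0.0646 in edgeR) passed with the block (1.11, adjusted p = 0.0172). ESRP1, an epithelial splicing factor, was at 0.20 on the log2 scale (SE 0.28, adjusted p = 0.687).

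**Figure D5:**
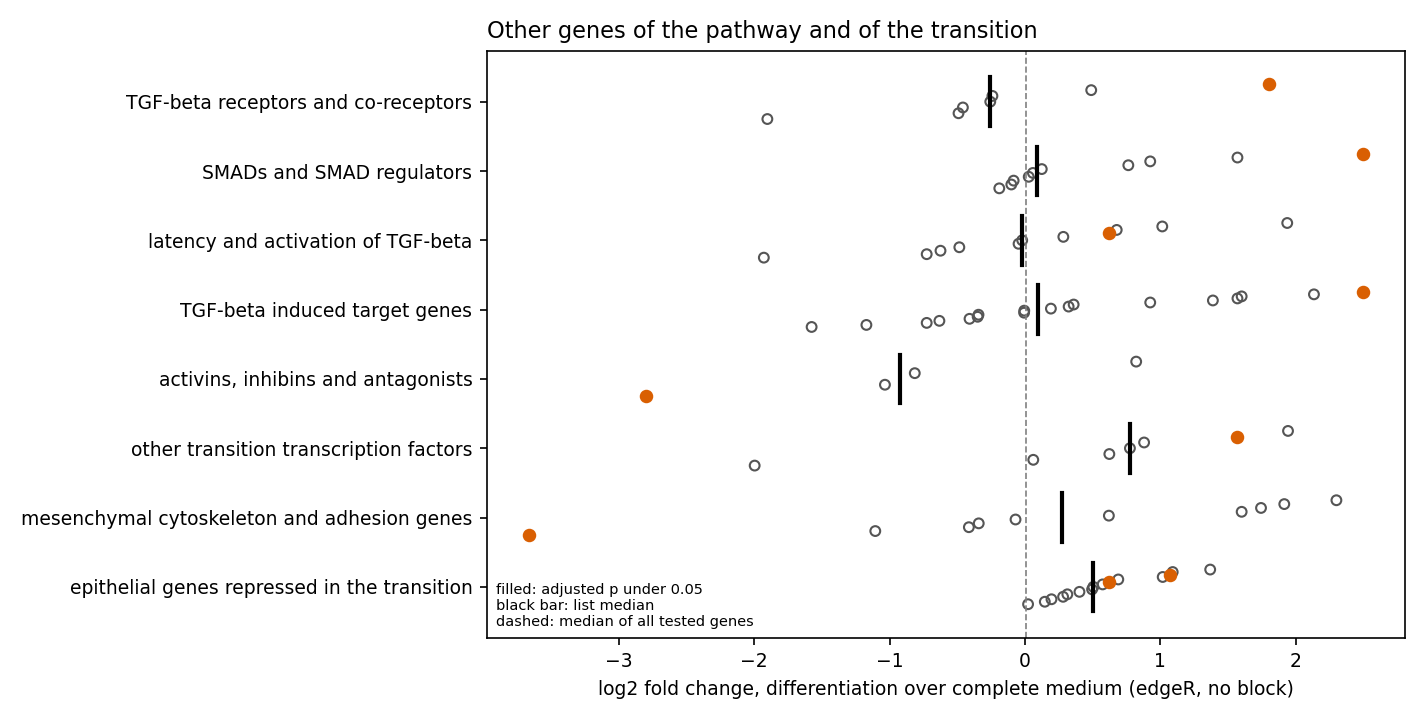
Log2 fold change between the media (x axis) of the tested genes in each of 8 lists of other pathway and transition genes (y axis), 1 point per gene, filled where the adjusted p is under 0.05, with a black bar at the median of each list and a dashed line at the median of all genes tested. The 15 epithelial genes lie above 0, whereas the TGF-beta induced target genes are divided evenly around it.

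Markers of other cell types were read beside these values. Of 12 stromal markers 11 were above 3 counts in at least 1 library and 3 were tested, none of which passed, with a summed level of 147 to 420 CPM in complete medium and of 217 to 543 CPM after differentiation. The sum was higher in differentiation medium in Em, from 147 to 543 CPM. It was lower in LPN (249 to 243 CPM), EPN1 (420 to 355 CPM) and EPN2 (273 to 217 CPM). Nearly all of that sum was THY1, at 140 to 416 and 216 to 533 CPM, which was also higher in 1 line and lower in 3. The fibroblast collagen gene COL3A1 went from 1 count in complete to 244 in differentiation medium in Em and from 1 to 268 in EPN1, against 2 and 8 counts in LPN and 0 and 2 in EPN2. Em and EPN1 were also the lines in which TGFB2 and TGFB3 were both higher and VIM was lower by the smallest factors. TGFB2 was higher in LPN too. In Em FN1 and TGFBI were lower, by factors of 4.24 and 5.94. In EPN1 FN1 was lower by a factor of 1.35 and TGFBI higher by a factor of 1.45. The part of COL3A1-expressing cells in those values was not tested. COL1A2 had 0 to 9 counts in complete and 1 to 85 in differentiation medium, and PDGFRA had 1 to 4 and 6 to 29. Like COL3A1, these genes were not tested and were higher in 4 of 4 lines, as 23.9% of all genes tested were. Some of these differences rested on few counts, such as 0 and 1 for COL1A2 in LPN and 4 and 6 for PDGFRA in EPN2. COL1A1 went from 26 to 56 counts in Em, from 9 to 0 in LPN and from 16 to 0 in EPN1. In EPN2 it had 2 counts in each medium. PDGFRB was lower in differentiation medium in 4 of 4 lines (log2 fold change -2.82, SE 1.00, adjusted p = 0.121 in edgeR) and passed with the block (adjusted p = 0.0160), and its part in the VIM and FN1 values was not tested. Of 8 endothelial markers 6 were above 3 counts in some library and none of 6 tested passed, with CDH5 and ERG at or under 3 counts throughout and sums of 40.1 to 90.1 and 39.6 to 66.6 CPM. TIE1 was lower in 4 of 4 lines (log2 fold change -1.27, adjusted p = 0.0515 in edgeR) and passed with the block (adjusted p = 0.0462). TEK was higher in 4 of 4 lines, from 1 to 5 counts in complete medium to 12 to 549 counts, the highest in EPN1 (log2 fold change 5.71, adjusted p = 0.0613 in edgeR, and 0.0762 with the block). Of 8 immune markers 6 were above 3 counts in some library and none of 4 tested passed, with CD3E and TYROBP at or under 3 counts throughout and sums of 115 to 285 and 118 to 194 CPM. LCP1 had the largest means on that list, 153 and 101 CPM, whereas PTPRC had means of 0.851 and 0.212 CPM. None of the 10 ductal markers passed, and CDH1 alone did with the block.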

How the data were processed

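Poly(A) RNA of 8 PPDO libraries was quantified by the authors with salmon in an nf-core workflow on a pig genome with their own extended annotation, and the deposited values are estimated counts per gene row, of which 78.6% of those above 0 are whole. The submitters' processing notes name Sscrofa11.1 without a role. They also list the human build GRCh38 and Cell Ranger, which the study's methods name for single-cell data. The study tested counts scaled for gene length, and whether this table was scaled is not given in the sources used here. Rows with the suffixes -iso and -ext were summed per gene, as the study did, and rounded. The -ext rows held 2.58% of all counts and at most 8.33% of a member's (ZEB2, 1 of 12 counts). The 8 rows of reporter transgenes (0.00142% of counts) were left out. Symbols came from the table for 17095 genes and from a second table for 623. TWIST1, CRB3 and KRT19 were not matched, and LTBP4 named 2 genes and was left out of the counts.

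Columns were assigned to media by name and to lines by the column header, and no column was tied to a replicate number. Replicates are cultures of different lines. The lines pair the media: after removal of the medium means, libraries correlated at 0.400 to 0.657 over 4 pairs of the same line. Over 12 pairs of different lines the values were -0.479 to 0.242. Removal of the means pushes these down when those of the same line are above 0, so the ranges are not independent.

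Media were compared in R 4.3.3 with edgeR 4.0.16 (TMM, default expression filter, quasi-likelihood test on medium alone), which left 14475 genes, 3954 of them under 0.05 without adjustment. CPM are scaled by TMM factors of 0.935 to 1.06. The SE is the absolute log2 fold change over the square root of the F statistic. Within-line ratios carry exact (Clopper-Pearson) conditional intervals. Alternatives were the line as a block, DESeq2 1.42.0, its size factors, no filter, no -ext rows and leaving out libraries or lines. Fits were tested on simulated counts.

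The 10 genes and the lists (receptors, SMADs, latency and activation, induced targets, activins, other transcription factors, mesenchymal, epithelial, and markers of ductal, stromal, endothelial and immune cells) were chosen with earlier results of these data known. Named were all 10 genes, every listed gene past the threshold, up to 3 per list with the smallest adjusted p, 11 fixed pathway genes and the 3 genes most alike, of which some are not reported here. Coordinates are RefSeq gene spans on Sscrofa11.1.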

Additional observations from a re-analysis of the deposited data

Results flagged for a closer look

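Among 25 genes tested in each medium, 50 groups of 4 libraries in all, 1 library stood apart from the others of its group by Dixon's test on log2 CPM: SOX4 in EPN2 in differentiation medium, at 170 CPM against 316 to 342 CPM in the other lines (gap over range 0.887, above the critical value for groups of this size). Chance gives about 1 in 20 such groups.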

How the results depend on the processing

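The number of genes past the threshold, 1009 of 14475, was 2884 of 14475 in edgeR with a block for line. Of the genes with an adjusted p, 3026 of 16323 passed in DESeq2 and 5597 of 16539 in DESeq2 with the block. The number was 506 without a filter, where more genes were tested, and 70 to 1199 with 1 library left out. Of the 8 members, 1 passed in edgeR with and without the block, 2 in DESeq2 (TGFB1 and TGFB2), 2 in DESeq2 with the block (TGFB1 and VIM) and 0 to 1 with 1 library left out. The 8 other pathway genes past the threshold became 24 with the block, 21 in DESeq2 and 41 in DESeq2 with the block. Of all genes, 19.9%, 18.5% and 33.8% passed in these fits. With 1 library left out, 0 to 8 of the other pathway genes passed. TGFB1 was lower in all 18 alternatives, with log2 fold changes from -2.73 to -2.20, and lost its call in 4, each with 1 library or the EPN1 line left out. TGFB2, SNAI1, VIM and FN1 kept their direction in all 18, over ranges of 0.70 to 2.73, -0.52 to -0.20, -2.41 to -0.79 and -3.80 to -0.24. TGFB3 turned to -0.013 with the block and -0.015 in DESeq2 with it, and ranged from -0.85 to 1.03 with libraries or lines left out. SNAI2 ranged from -0.47 to 0.70 and TGFBI from -1.89 to 0.91 in the same fits, both with changes of sign. In edgeR the block changed the call of no member, whereas in DESeq2 TGFB2 lost its call with the block and VIM gained one. The cause of these shifts was not tested. Depth limits ZEB1 and ZEB2, and in single lines TGFB3 and SNAI1.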
